A study of Bos taurus with 6 samples.

Results

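The genes that supply acetyl-CoA and build fatty acids from it were followed in mammary epithelial cells of cattle (Bos taurus) kept in culture, a cell type whose task in the gland is milk production. The set holds 10 genes, taken by their symbols from the 24616 genes of the deposited table: the acetyl-CoA synthetases ACSS1, ACSS2 and ACSS3, the citrate lyase ACLY, the acetyl-CoA carboxylases ACACA and ACACB, the fatty acid synthase FASN, the thioesterase OLAH, and the paralogs MID1IP1 and THRSP. Cells to which acetate and BHBA (beta-hydroxybutyrate, a ketone body) had been added were compared with control cells without the addition, with 3 RNA-seq libraries per group, and the series treats the cells given both substrates as the ones with the higher capacity for milk fat. The acetate is NaAc, the sodium salt, in the titles, and no control with matched sodium is named, so sodium, acetate and BHBA cannot be told apart. No source used here gives the doses, the length of the treatment or the origin of the cells (a line or a primary culture). None says whether the libraries came from separate cultures either, so the spread behind each p-value is that between libraries and may be technical.

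Fatty acid synthesis in the cytosol starts from acetyl-CoA, which a cell can make by activating acetate or by splitting citrate exported from mitochondria. A carboxylase turns part of it into malonyl-CoA, and fatty acid synthase joins the units into a chain. The ruminant mammary gland is known for drawing most of this carbon from blood acetate, and BHBA can serve as a primer of the chain, whereas citrate cleavage is known to be a minor route in ruminants.

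Values are FPKM, fragments mapped to a gene per kilobase of its length and scaled by all fragments mapped, so that levels can be compared between genes as far as the gene lengths used were right. They hold no read counts, and the depth behind each value is unknown. Summed FPKM was 787186 in treated replicate 1, 936152 and 912431 in treated replicates 2 and 3, 1134026 in control replicate 1, and 847971 and 816087 in control replicates 2 and 3. The libraries numbered 1 thus held the lowest and the highest sum, and they stood apart from the other libraries of their groups in several of the 10 genes. Changes are therefore given over all 6 libraries and also over the libraries numbered 2 and 3, an alternative chosen after seeing the data. All 8 epithelial markers examined, the keratins KRT5, KRT7, KRT8, KRT14, KRT18 and KRT19 with EPCAM and CDH1, had a mean of at least 1 FPKM, and they summed to 12507 to 14965 FPKM in treated and 15549 to 20353 in control libraries. Most of that difference lay in KRT5, at 6025 to 6827 FPKM in treated and 8960 to 9385 in control libraries. CDH1 was also lower (171.95 to 204.57 against 204.59 to 269.26), whereas KRT14 was higher (18.60 to 27.77 against 14.42 to 17.98). The other markers overlapped between the groups. CSN1S1, CSN2 and PAEP, genes of major milk proteins, were listed at 0 in all 6 libraries, whereas CSN3, the gene of kappa-casein, stood at 12.97 to 18.35 FPKM in treated and 15.67 to 19.11 FPKM in control libraries. In bulk RNA, fewer cells of a type and less RNA per cell cannot be told apart.

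Of the 10 genes, 6 reached the mean of 1 FPKM that the test required, namely ACSS2, ACSS1, ACLY, ACACA, FASN and MID1IP1. ACSS2 rose to 2.21 times its control level, and it was the 1 member past the threshold. ACSS2 and ACLY had treated libraries that all lay above the control libraries, 2 of the 6 tested, where the groups did not overlap in 19.7% of all genes tested (13.0% above and 6.69% below). ACLY had a fold change of nearly the same size with a larger spread between libraries, and it did not pass. FASN, ACACA, ACSS1 and MID1IP1 had fold changes between 0.999 and 1.17, and none passed. ACSS3, ACACB, THRSP and OLAH were near 0 or listed at 0. Over all genes tested, 55 of 11615 passed (0.474%), of which 40 were higher (0.344%) and 15 lower (limma test, with p adjusted after Benjamini and Hochberg and a threshold of 0.05, n = 3 per group), or 35 higher and 27 lower with quantile normalization.

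**Figure D1:**
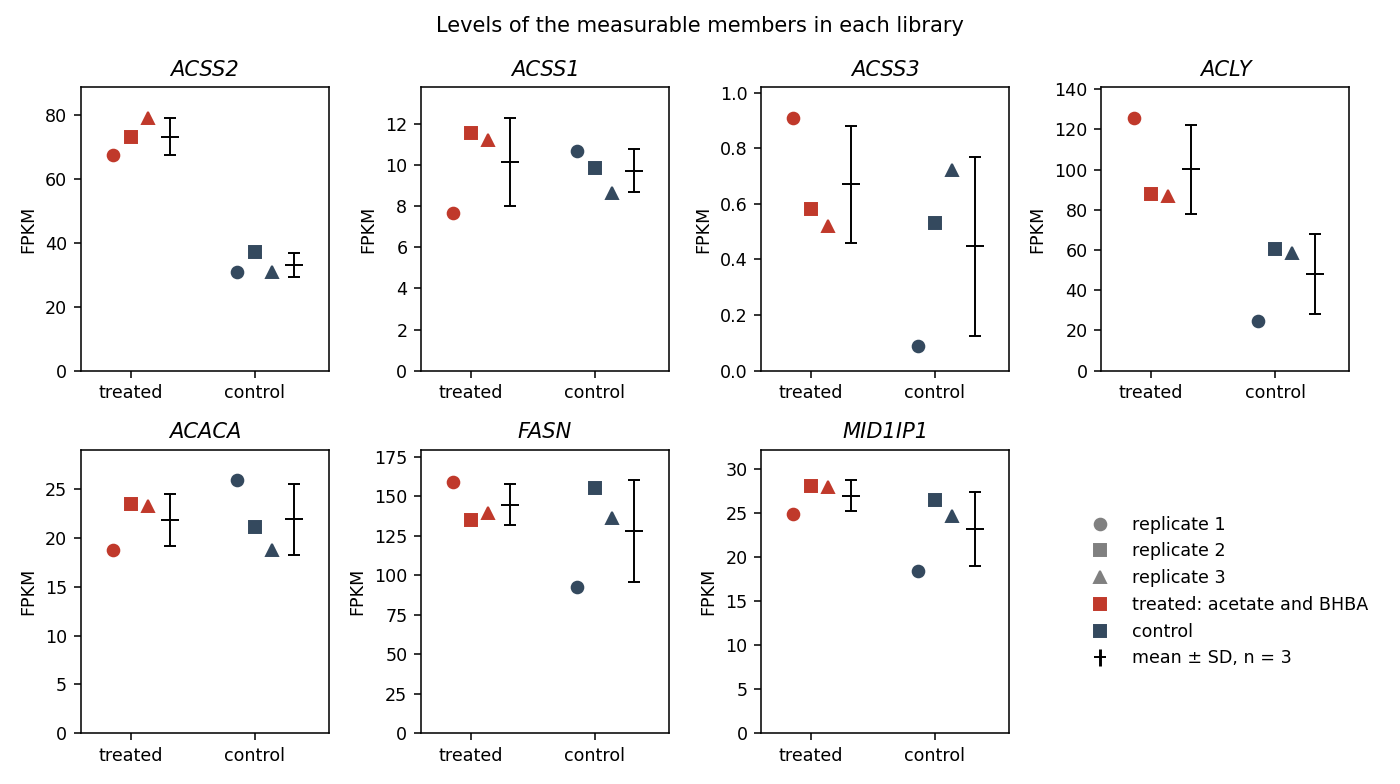
FPKM of 7 members in each library (linear axes from 0), treated cells on the left and control cells on the right of each panel, with symbols for replicates and bars for mean ± SD (n = 3). ACSS2 and ACLY show no overlap between the groups, and replicate 1 stands apart for ACLY in both groups, at 125.8 FPKM in treated and 24.94 in control cells.

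ACSS2 (ENSBTAG00000013303) encodes the cytosolic and nuclear acetyl-CoA synthetase, the enzyme that activates acetate for lipid synthesis and for histone acetylation. Its level was 67.31, 73.07 and 79.07 FPKM in treated replicates 1, 2 and 3, against 30.90, 37.24 and 30.71 FPKM in control replicates 1, 2 and 3. Every treated library lay above every control library, and the libraries numbered 1 did not stand apart. The means were 73.2 ± 5.88 FPKM in treated and 33.0 ± 3.72 in control cells (SD, n = 3 each), which placed the gene above 82.0% of the genes tested. The log2 fold change was 1.14 ± 0.13 SE (2.21-fold, 95% interval 1.77 to 2.74, limma adjusted p = 0.0346), position 28 of 11615 genes by p-value. Over the libraries numbered 2 and 3 the log2 fold change was 1.16 ± 0.11 (adjusted p = 0.00351, where 29.3% of all genes passed).

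The size of the ACSS2 change moved little with the processing, between 1.06 and 1.23 on the log2 scale over 16 other ways of processing or choosing the libraries, while the call held in 8 of them. It was lost after rescaling to the same sum (adjusted p = 0.0754), with trimmed-mean factors (adjusted p = 0.0569), with the replicate number as a block (adjusted p = 0.538), and without any single library other than control replicate 1 (adjusted p = 0.138 to 0.265).

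Markers of adipocytes, a cell type rich in these enzymes, were near 0 apart from LEP (leptin). Of the 6 adipocyte markers found, none had a mean of 1 FPKM, with at most 0.07 for ADIPOQ, 0.31 for PLIN1, 0.10 for CIDEC, 0.26 for FABP4 and 0.02 for PCK1 in any library. The summed level of the list was 1.23 to 2.32 FPKM in treated and 0.44 to 0.80 FPKM in control libraries, and LEP, at 1.0 to 1.97 FPKM in treated and 0.07 to 0.23 in control libraries, made most of that difference. Fibroblast markers summed to 32.5 to 42.0 FPKM in treated and 21.3 to 40.3 in control libraries, immune markers to 7.11 to 8.49 in treated and 4.28 to 5.68 in control libraries, nearly all of it CD14 (6.19 to 8.03 in treated and 3.65 to 4.73 in control libraries, with PTPRC, CD3E and LYZ at most at 0.11), and endothelial markers to 4.44 to 6.41 in treated and 3.16 to 5.18 in control libraries, most of it VWF (3.72 to 5.82 in treated and 2.52 to 3.76 in control libraries). The part of these other cell types in the results was not tested.

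ACSS1 (ENSBTAG00000004281) encodes the mitochondrial acetyl-CoA synthetase, which feeds acetate into oxidation. It stood at 7.66, 11.56 and 11.22 FPKM in treated replicates 1, 2 and 3, against 10.68, 9.87 and 8.64 FPKM in control replicates 1, 2 and 3. The groups overlapped, with treated replicate 1 the lowest of all 6 libraries. The log2 fold change was 0.04 ± 0.20 (1.03-fold, 95% interval 0.739 to 1.43, limma adjusted p = 0.972), and its sign turned with quantile normalization (-0.056) and with trimmed-mean factors (-0.037). Over the libraries numbered 2 and 3 it was 0.29 ± 0.11 (adjusted p = 0.0931).

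ACSS3, a mitochondrial family member that prefers propionate in the rat, stood at 0.91, 0.58 and 0.52 FPKM in treated replicates 1, 2 and 3, against 0.09, 0.53 and 0.72 FPKM in control replicates 1, 2 and 3. Its groups overlapped, it lay below the minimum for testing, and the libraries numbered 1 held its highest and its lowest value. ACSS2 therefore made up most of the summed level of the 3 synthetases in every library. Its share was 88.7%, 85.8% and 87.1% in treated replicates 1, 2 and 3, against 74.2%, 78.2% and 76.6% in control replicates 1, 2 and 3. The groups did not overlap in this share.

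ACLY (ENSBTAG00000016740) encodes ATP citrate lyase, the enzyme that splits cytosolic citrate into acetyl-CoA and oxaloacetate. Its level was 125.8, 87.99 and 86.87 FPKM in treated replicates 1, 2 and 3, against 24.94, 60.25 and 58.51 FPKM in control replicates 1, 2 and 3. Every treated library lay above every control library, while replicate 1 was the highest of the treated and the lowest of the control libraries by a wide margin. The means were 100 ± 22.2 FPKM in treated and 47.9 ± 19.9 in control cells (SD, n = 3 each). The log2 fold change was 1.14 ± 0.36 (2.20-fold, 95% interval 1.2 to 4.05, limma adjusted p = 0.305), and it did not pass in any of the same 16 alternatives.

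The size of the estimate for ACLY depended on the libraries numbered 1. The log2 fold change was 0.73 without control replicate 1 (adjusted p = 0.109) and 0.97 without treated replicate 1 (adjusted p = 0.693). Over the libraries numbered 2 and 3 it was 0.55 ± 0.07 (adjusted p = 0.00648, where 29.3% of all genes passed), and with log2 summed FPKM as a covariate, also added after seeing the data, 0.95 ± 0.08 (adjusted p = 0.00114, where 18.0% passed). The treated-minus-control difference within a number was 2.31 for replicate 1, against 0.54 and 0.57 for replicates 2 and 3 (log2). The direction was the same in each of these values, and the size was not.

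**Figure D2:**
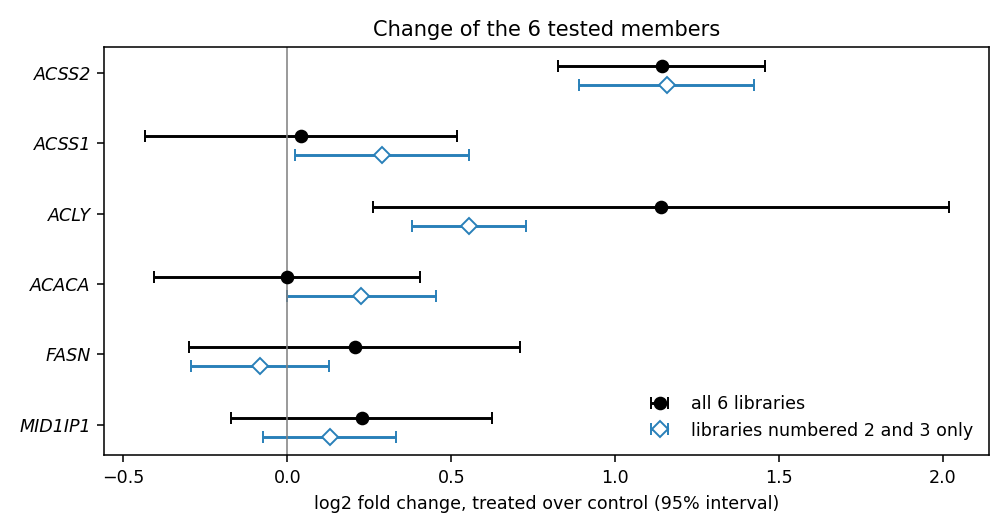
Log2 fold change (treated over control) of the 6 tested members with 95% intervals, over all 6 libraries (filled circles) and over the libraries numbered 2 and 3 (open diamonds). ACSS2 stays at 1.14 and 1.16, whereas ACLY is at 1.14 and 0.55 and has the widest interval over all 6 libraries.

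ACACA (ENSBTAG00000017567) encodes the cytosolic carboxylase whose product, malonyl-CoA, is the committed precursor of fatty acids. It stood at 18.76, 23.40 and 23.24 FPKM in treated replicates 1, 2 and 3, against 25.88, 21.09 and 18.72 FPKM in control replicates 1, 2 and 3. The groups overlapped over nearly their whole range. The log2 fold change was 0.00 ± 0.17 (0.999-fold, 95% interval 0.755 to 1.32, limma adjusted p = 0.999). Over the libraries numbered 2 and 3 it was 0.23 ± 0.09 (adjusted p = 0.115). A change of any size within the interval over all 6 libraries could not be told from no change.

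As a share of its library's summed FPKM, ACACA varied less. It accounted for 23.8, 25.0 and 25.5 FPKM per 1000000 summed FPKM in treated replicates 1, 2 and 3, against 22.8, 24.9 and 22.9 FPKM per 1000000 summed FPKM in control replicates 1, 2 and 3. On the same scale ACLY accounted for 160, 94.0 and 95.2 FPKM per 1000000 summed FPKM in treated replicates and 22.0, 71.1 and 71.7 in control replicates, so that rescaling left the position of its libraries numbered 1 unchanged. ACACB, the carboxylase of the outer mitochondrial membrane whose malonyl-CoA restrains fatty acid oxidation, reached at most 0.03 FPKM in either group and was not tested.

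FASN (ENSBTAG00000015980), the multifunctional fatty acid synthase, had the highest level of the 10 genes, above 92.6% of the genes tested. It stood at 159.27, 134.79 and 139.62 FPKM in treated replicates 1, 2 and 3, against 92.32, 155.00 and 136.54 FPKM in control replicates 1, 2 and 3. The groups overlapped, and control replicate 1 was low while the other 5 libraries lay close together. The means were 145 ± 13.0 FPKM in treated and 128 ± 32.2 in control cells (SD, n = 3 each), with a log2 fold change of 0.20 ± 0.21 (1.15-fold, 95% interval 0.813 to 1.63, limma adjusted p = 0.865). It was -0.013 without control replicate 1 and -0.084 ± 0.087 over the libraries numbered 2 and 3 (adjusted p = 0.481).

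OLAH, the thioesterase II that in rat and mouse mammary gland releases medium-chain acids from the synthase, was listed at 0 in all 6 libraries. The ribosomal protein gene RPL27 was listed at 0 in all 6 as well, so a 0 in this table need not mean an absent transcript.

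MID1IP1 (ENSBTAG00000011463) encodes a small protein that promotes the assembly of acetyl-CoA carboxylase into active polymers in the mouse. It stood at 24.91, 28.01 and 27.91 FPKM in treated replicates 1, 2 and 3, against 18.44, 26.46 and 24.64 FPKM in control replicates 1, 2 and 3. The groups overlapped, and control replicate 1 was the lowest. The log2 fold change was 0.23 ± 0.17 (1.17-fold, 95% interval 0.888 to 1.54, limma adjusted p = 0.766), or 0.13 ± 0.08 over the libraries numbered 2 and 3 (adjusted p = 0.275). Its paralog THRSP, known as Spot 14 and needed for full fatty acid synthesis in the lactating mouse gland, was listed at 0.03 FPKM in treated replicate 1 and at 0 in the other 5 libraries.

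The order of mean levels was FASN, ACLY, ACSS2, MID1IP1, ACACA and ACSS1 in both groups. In treated cells no neighbours in this order overlapped across libraries. In control cells ACLY (24.94 to 60.25 FPKM) overlapped with ACSS2 (30.71 to 37.24 FPKM), ACSS2 stood above MID1IP1 (18.44 to 26.46 FPKM), and MID1IP1 overlapped with ACACA (18.72 to 25.88 FPKM). The 2 enzymes that make cytosolic acetyl-CoA, ACSS2 and ACLY, summed to 193, 161 and 166 FPKM in treated replicates 1, 2 and 3, against 55.8, 97.5 and 89.2 FPKM in control replicates 1, 2 and 3. The sums did not overlap between the groups, which follows from the lack of overlap in each of the 2 genes and adds nothing to it.

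**Figure D3:**
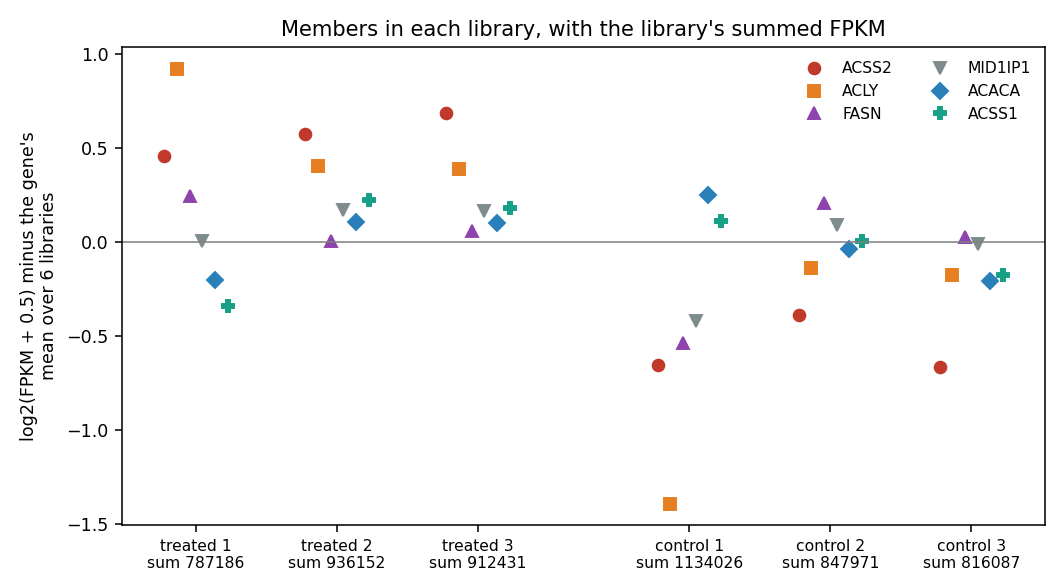
Each of the 6 tested members in each library, as log2(FPKM + 0.5) minus the gene's mean over the 6 libraries, with the library's summed FPKM under its name (treated libraries on the left). In these unscaled values ACLY, FASN and MID1IP1 are at their lowest and ACACA is at its highest in control replicate 1, which has the highest sum (1134026). Per 1000000 summed FPKM all 6 genes are at their lowest in that library.

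How the members stood in the libraries numbered 1 depended on the scaling. In FPKM as deposited, ACLY, FASN and MID1IP1 were each at the lowest of their 6 values in control replicate 1 and ACACA was at the highest, while in treated replicate 1 ACLY and FASN were at the highest and ACSS1 was at the lowest. Per 1000000 summed FPKM, all 6 tested members were at their lowest in control replicate 1, with ACSS2 at 27.2, ACACA at 22.8 and ACSS1 at 9.42. On that scale ACLY (160) and FASN (202) were still at their highest in treated replicate 1, and ACSS1 (9.73) was no longer at its lowest there. The part of the summed FPKM, or of whatever set the libraries numbered 1 apart, in these values was not tested.

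A plain ratio between 2 members within a library does not depend on how the library was scaled. The ratios given here are of FPKM + 0.5 for each gene, so they differ slightly from plain ratios and keep a slight dependence on scaling. Of 7 ratios chosen, 5 had both genes at a mean of at least 1 FPKM. Each was compared by an exact permutation test, 2-sided, for which 0.1 is the smallest p possible with 3 libraries per group, so that none could pass. ACSS2 stood at 8.31, 6.10 and 6.79 times ACSS1 in treated replicates 1, 2 and 3, against 2.81, 3.64 and 3.41 times in control replicates 1, 2 and 3. The groups did not overlap, and the mean log2 ratio differed by 1.10 (exact permutation p = 0.1, 0.167 adjusted over the 5 ratios).

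Relative to FASN, both acetyl-CoA makers were higher in every treated library than in any control library. ACSS2 stood at 0.424, 0.544 and 0.568 times FASN in treated replicates, against 0.338, 0.243 and 0.228 times in control replicates (difference 0.94 in log2, exact permutation p = 0.1, 0.167 adjusted). ACLY stood at 0.791, 0.654 and 0.624 times FASN in treated replicates, against 0.274, 0.391 and 0.431 times in control replicates (difference 0.94, exact permutation p = 0.1, 0.167 adjusted). Without any single library the 3 differences kept their sign, at 0.98 to 1.2 for ACSS2 over ACSS1, 0.83 to 1.11 for ACSS2 over FASN and 0.74 to 1.07 for ACLY over FASN. They were 0.87, 1.24 and 0.64 in that order over the libraries numbered 2 and 3.

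Over all 6 libraries the balance of both acetyl-CoA makers was not separated by treatment. ACSS2 stood at 0.537, 0.831 and 0.911 times ACLY in treated replicates 1, 2 and 3, against 1.23, 0.621 and 0.529 times in control replicates 1, 2 and 3 (difference 0.00 in log2, exact permutation p = 1.0). Control replicate 1 was the only library with more ACSS2 than ACLY. Over the libraries numbered 2 and 3 the treated ratios lay above the control ratios, with a difference of 0.60 in log2. ACACA stood at 0.121, 0.177 and 0.169 times FASN in treated replicates and at 0.284, 0.139 and 0.140 times in control replicates (difference -0.21, exact permutation p = 0.8). That difference was 0.14 without control replicate 1, so 1 library set its sign, and 0.31 over the libraries numbered 2 and 3.

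**Figure D4:**
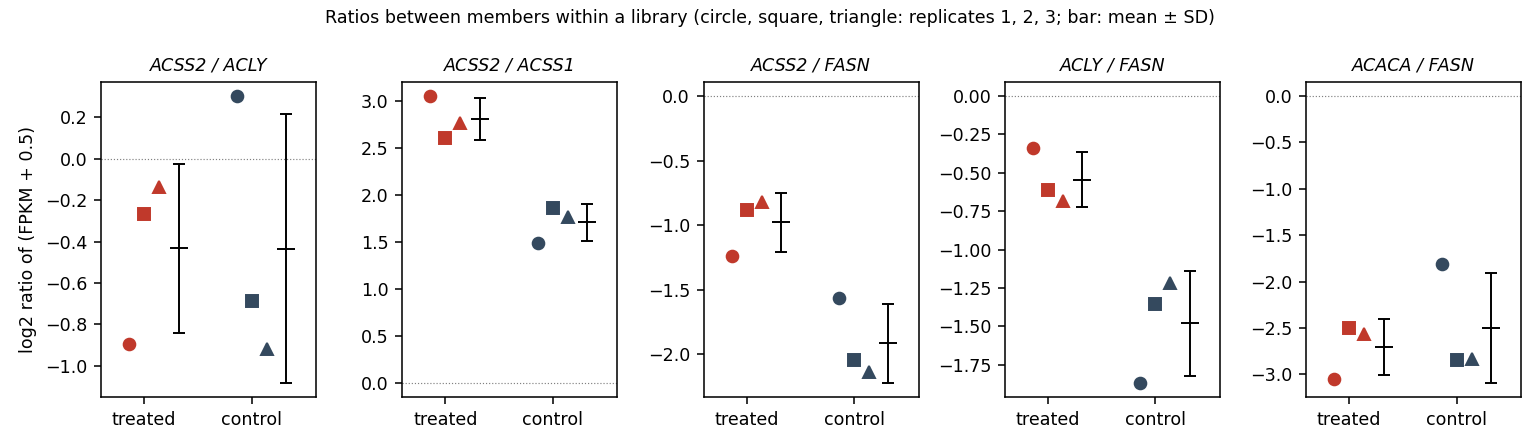
Log2 ratio of (FPKM + 0.5) between 2 members within each library, treated on the left and control on the right of each panel, with bars for mean ± SD (n = 3) and a separate axis per panel. ACSS2 over ACSS1, ACSS2 over FASN and ACLY over FASN do not overlap between the groups, while ACSS2 over ACLY and ACACA over FASN do.

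Genes around the pathway were counted in 6 lists, with 51 tested of 58 listed. INSIG1 was the 1 gene past the threshold, where 0.474% of all genes passed, and 31 were higher and 20 lower without regard to the threshold, with a median log2 fold change of 0.03 against 0.08 over all genes tested. An unadjusted limma p under 0.05 was reached by 9 of the 51, by 2 of the 6 tested members and by 1282 of all 11615 genes tested. Counts at that level in single lists are to be read beside the share over all genes. INSIG1, which holds the SREBP precursors in the endoplasmic reticulum and is itself a target of SREBP, stood at 136.18, 123.38 and 127.18 FPKM in treated replicates 1, 2 and 3, against 52.44, 60.27 and 62.68 FPKM in control replicates 1, 2 and 3. The groups did not overlap (log2 fold change 1.14 ± 0.12, limma adjusted p = 0.0315), and the call was lost after rescaling to the same sum (adjusted p = 0.104), with the replicate block (adjusted p = 0.538) and without any single library other than control replicate 1 (adjusted p = 0.114 to 0.227).

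INSIG1 belonged to the lipogenic transcription regulators, of which all 15 were tested. Of these, 5 were at an unadjusted limma p under 0.05, beside 1282 of the 11615 genes tested. In that list 12 were higher and 3 lower without regard to the threshold, beside 7192 higher of the 11615 genes tested, and the median log2 fold change was 0.18. The list held 11 and 4 with quantile normalization, 10 and 5 with trimmed-mean factors and 13 and 2 after rescaling to the same sum. The median over all genes, 0.079 as reported, was 0.0018, 0.0028 and 0.15 in those settings. SREBF1, whose product activates ACACA, FASN, ACLY and ACSS2 in mouse liver, stood at 55.6 ± 1.33 FPKM in treated and 39.3 ± 1.05 in control cells (SD, n = 3 each), with no overlap between the groups (log2 fold change 0.49 ± 0.10, limma adjusted p = 0.116). Over the libraries numbered 2 and 3, 4 of the 15 passed, where 29.3% of all genes did, so the count does not stand out there. SREBF1 had a value of 0.51 in that limma fit (adjusted p = 0.00919) and INSIG1 of 1.02 (adjusted p = 0.00217). With the covariate 6 of the 15 passed, where 18.0% of all genes did. SREBF1 was then at 0.50 (adjusted p = 0.00312) and INSIG1 at 1.10 (adjusted p = 0.000227). Why the count differed between the settings was not tested.

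The genes of citrate export and pyruvate entry showed no call in limma, with 0 of 10 past the threshold. An unadjusted p under 0.05 was reached by 1 of them, beside 1282 of the 11615 genes tested. In the fit over the libraries numbered 2 and 3, 3 of the 10 passed, where 29.3% of all genes did. With the covariate 2 of the 10 passed, where 18.0% of all genes did. ACO1, the cytosolic aconitase that draws on citrate, was at 21.2 ± 0.541 FPKM in treated and 26.0 ± 1.06 in control cells (SD, n = 3 each; log2 fold change -0.29, limma adjusted p = 0.392). Its value was -0.32 over the libraries numbered 2 and 3 (adjusted p = 0.0352) and -0.30 with the covariate (adjusted p = 0.0230). PC, the pyruvate carboxylase that replenishes oxaloacetate, was at 75.4 ± 6.92 and 64.7 ± 2.93 FPKM in treated and control cells (log2 fold change 0.22, adjusted p = 0.610), or 0.28 over the libraries numbered 2 and 3 (adjusted p = 0.0703). SLC25A1, the carrier that exports citrate from mitochondria, named after its values were seen, stood at 300.76, 410.60 and 386.03 FPKM in treated replicates 1, 2 and 3, against 414.16, 277.46 and 242.36 FPKM in control replicates 1, 2 and 3. The groups overlapped through the libraries numbered 1 (log2 fold change 0.26 ± 0.24, limma adjusted p = 0.840). The value was 0.62 over the libraries numbered 2 and 3 (adjusted p = 0.00895), and with the covariate 0.38 (adjusted p = 0.00535).

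The supply of CoA, biotin and phosphopantetheine, the cofactors of the synthetases, the carboxylases and the synthase, gave 0 calls in limma among 9 tested genes of 10 listed, with 1 at an unadjusted p under 0.05. That gene was SLC5A6, the transporter of biotin and pantothenate, at 8.75 ± 0.520 FPKM in treated and 5.80 ± 0.945 in control cells (SD, n = 3 each). Its groups did not overlap (log2 fold change 0.56 ± 0.16, limma adjusted p = 0.256). The value was 0.46 over the libraries numbered 2 and 3 (adjusted p = 0.0579) and 0.54 with the covariate (adjusted p = 0.0239). SLC5A6 was the 1 gene of the list that passed with the covariate, where 18.0% of all genes did. Another 1 passed over the libraries numbered 2 and 3, where 29.3% did. For PPCS, an enzyme of CoA synthesis, the log2 fold change was -0.27 (adjusted p = 0.530), or -0.21 over those libraries (adjusted p = 0.175).

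Genes that control the carboxylases and malonyl-CoA gave 0 calls in limma among 5 tested of 9 listed, with 0 at an unadjusted p under 0.05. Over the libraries numbered 2 and 3, 1 of the 5 passed, where 29.3% of all genes did. With the covariate 0 passed, where 18.0% of all genes did. PRKAB1 and PRKAG1, subunits of the AMP-activated kinase that inhibits the carboxylases, had log2 fold changes of -0.25 (adjusted p = 0.544) and -0.080 (adjusted p = 0.932), or -0.17 (adjusted p = 0.204) and 0.13 (adjusted p = 0.298) over the libraries numbered 2 and 3. Mitochondrial fatty acid synthesis, a separate route that makes the lipoic acid precursor, gave 0 calls among 7 tested of 8 listed, with 1 at an unadjusted p under 0.05. In that list 2 of the 7 passed over the libraries numbered 2 and 3, and 1 passed with the covariate. ACSF3, the mitochondrial malonyl-CoA synthetase, was at 2.19, 2.55 and 2.59 FPKM in treated replicates and at 7.48, 3.76 and 3.56 in control replicates (log2 fold change -0.81 ± 0.30, adjusted p = 0.371), with control replicate 1 far above the rest. Its value was -0.50 without that library, -0.44 over the libraries numbered 2 and 3 (limma adjusted p = 0.0738) and -0.68 with the covariate (adjusted p = 0.0136). For OXSM, the ketoacyl synthase of that route, the log2 fold change was -0.11 (adjusted p = 0.917), or -0.0042 over those libraries (adjusted p = 0.982).

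Genes that hydrolyse acetyl-CoA or remove acetyl groups from proteins (sirtuins) gave 0 calls in limma among 5 tested of 6 listed, with 1 at an unadjusted p under 0.05. SIRT2, a cytosolic deacetylase, was at 66.6 ± 4.97 FPKM in treated and 50.4 ± 5.38 in control cells (SD, n = 3 each; log2 fold change 0.40, adjusted p = 0.301), or 0.53 over the libraries numbered 2 and 3 (adjusted p = 0.00957) and 0.44 with the covariate (adjusted p = 0.00485). For ACOT8, a peroxisomal thioesterase, the log2 fold change was 0.44 (adjusted p = 0.460), or 0.71 over the libraries numbered 2 and 3 (adjusted p = 0.00771) and 0.52 with the covariate (adjusted p = 0.00660). These 2 of the 5 passed in both settings, where 29.3% and 18.0% of all genes did. ACOT12, the cytosolic acetyl-CoA hydrolase, was listed at 0 in all 6 libraries.

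**Figure D5:**
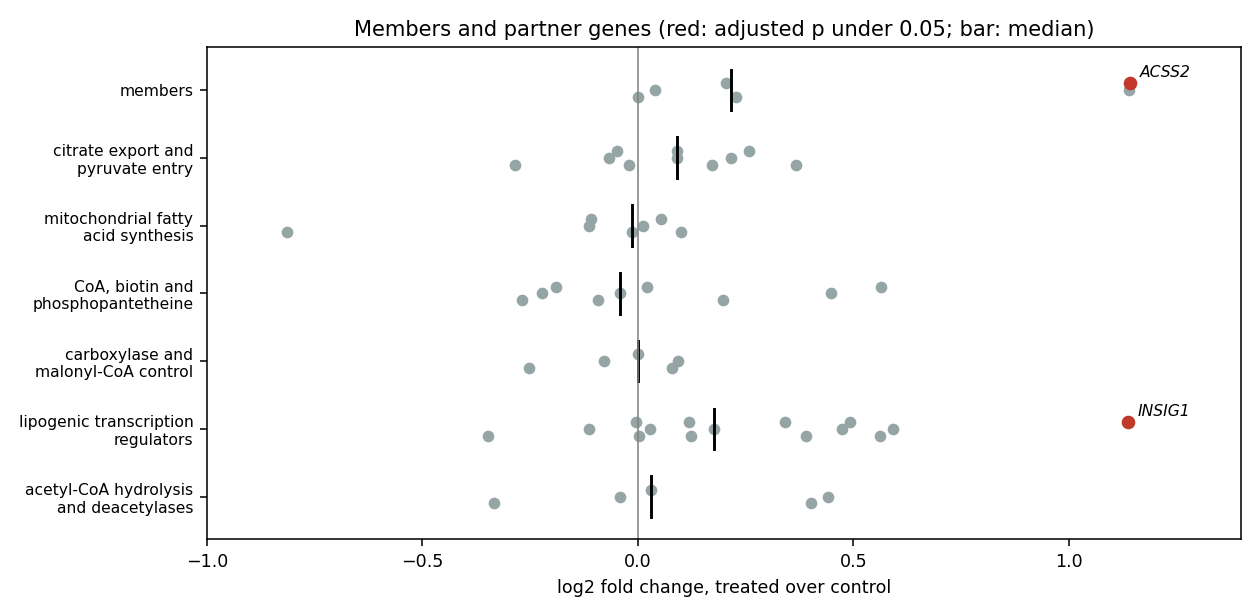
Log2 fold change (treated over control) of the 6 tested members and of the 51 tested genes of the 6 surrounding lists, 1 point per gene, with a bar at each list's median and red for an adjusted p under 0.05. ACSS2 and INSIG1 are the red points, both at 1.14, and ACLY lies beside ACSS2 without passing.

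The genes whose levels followed ACSS2 most closely over the 6 libraries (Pearson correlation of log2(FPKM + 0.5), among 10203 genes with a symbol) were C19orf12, FLII, C3orf18, DHCR7 and HSPB8, with r between 0.994 and 0.996. DHCR7, which makes cholesterol from its last precursor, averaged 219 FPKM in treated and 127 in control cells (log2 fold change 0.79). Those closest to ACLY were TTI2, ACSL1, PHLPP1, NFX1 and LPIN1, with r between 0.998 and 0.999. ACSL1, which activates long-chain fatty acids, stood at 40.7 FPKM in treated and 22.8 in control cells (log2 fold change 0.88 ± 0.30, limma adjusted p = 0.339), and LPIN1, the phosphatidate phosphatase of triacylglycerol synthesis, at 16.2 and 8.60 FPKM in treated and control cells (0.93 ± 0.32, adjusted p = 0.341). These are the highest of many correlations over 6 points that share the treatment and the spread of the libraries numbered 1, and none of the 10 genes passed the test. No gene was among the 5 closest to both.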

How the data were processed

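RNA from 3 treated and 3 control libraries was poly(A)-selected and sequenced as paired ends, per the labels' protocols. The authors deposited FPKM values, rounded to 2 decimals. The build was ARS-UCD1.2 per the submitters' processing notes, which also name DESeq2 without saying for what. The aligner, counting tool, strand setting and gene models were not given in the sources used here, so gene lengths, and reads shared by overlapping genes, are uncertain. Whole reads could not be recovered (smallest value 0.01), so no count model was used, and replicate spread is the only error.

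Columns were matched to samples by name: the treated columns name acetate and the replicate, not BHBA. Genes averaging at least 1 FPKM were compared on log2(FPKM + 0.5), which understates changes of low genes, with limma 3.58.1 (R 4.3.3, mean-variance trend, 2-sided, Benjamini-Hochberg over all genes tested, threshold 0.05). Its fold change estimates were first checked on simulated data with independent noise for each gene. Such data lack the shared deviation of the libraries numbered 1, so they cannot show how often a call here is false. Errors of fold changes are moderated SE. Figures and exact permutation tests used Python 3.11.15, scipy 1.17.1 and matplotlib 3.10.9. The rule named all 10 members, each list's called genes and its 2 lowest p-values, and the 5 genes most correlated with ACSS2 and with ACLY. RPL27 and SLC25A1 were named after their values were seen. Members and lists were chosen with earlier results of these data known. Of 58 listed partner genes 54 were found, and 3 of these lay below the minimum. Alternatives were the pseudocount, the filter, 3 scalings, the variance estimate, a replicate block, leaving out each library and, added after the data were seen, the summed FPKM as a covariate and leaving out both libraries numbered 1.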

Additional observations from a re-analysis of the deposited data

How the results depend on the processing

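As reported, 55 genes, 1 member (ACSS2) and 1 partner gene (INSIG1) passed. Over all genes, the count was 33 with a mean of at least 5 FPKM, 23 after rescaling to the same sum, 0 with the replicate block (584 at an unadjusted p under 0.05), 2089 with log2 summed FPKM as covariate and 3404 without both libraries numbered 1. The count of members was 0 after rescaling, with trimmed-mean factors and with the replicate block, and 2 with the covariate and without both libraries numbered 1, where ACLY joined ACSS2. The count of partner genes, of 51 tested, was 0 after rescaling and with the block, 12 with the covariate and 13 without both libraries. Over all genes, 18.0% passed with the covariate and 29.3% without both libraries, so these member and partner counts are to be read beside those shares. Leaving out 1 library gave 0 to 205 genes (0 or 1 without any library but control replicate 1), 0 to 1 members and 0 to 1 partner genes. The other settings kept each count within 1.5 times.

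The sign turned for ACSS1 with quantile normalization (-0.056) and trimmed-mean factors (-0.037), with -0.060 to 0.22 on leaving out 1 library and 0.29 without both libraries numbered 1. It turned for ACACA after rescaling (0.072), with the covariate (0.070) and without both libraries numbered 1 (0.23), with -0.10 to 0.12 on leaving out 1 library. FASN gave -0.084 without both libraries and -0.013 to 0.36 on leaving out 1. PRKAG1 gave 0.13 without both and -0.16 to 0.047 on leaving out 1, and OXSM -0.19 to 0.015. The log2 ratio ACSS2 over ACLY differed by -0.00060 with a pseudocount of 1, by -0.24 to 0.37 on leaving out 1 library and by 0.60 without both, and ACACA over FASN by 0.31 without both libraries and -0.38 to 0.14 on leaving out 1. The cause was not tested.

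Same-numbered libraries did not deviate together (r = -0.73, -0.37 and -0.38 for numbers 1, 2 and 3), and no library correlated best with its own number. Deviations from the mean of 3 libraries are bound together, and the libraries numbered 1 weigh on all of them. These values therefore cannot decide whether the numbers pair the samples. The depth is unknown, and values near 0 cannot be told from 0.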

Other observations

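In the order of protein-coding genes on the RefSeq assembly ARS-UCD2.0, used for names and neighbours only, ACSS2 lies between GGT7 and GSS. GGT7, a member of the gamma-glutamyltransferase family, had a log2 fold change of 1.25 ± 0.20 (limma adjusted p = 0.0685, n = 3 per group), close to that of ACSS2, while GSS, the glutathione synthetase on the other side, stood at -0.22 ± 0.19 (adjusted p = 0.827). Both neighbours of FASN, CCDC57 and DUS1L, stood near 0, at -0.03 ± 0.16 and -0.04 ± 0.20 (adjusted p = 0.972 for both). The other tested neighbours were APMAP beside ACSS1 (0.28), AATF beside ACACA (-0.34) and UNG beside ACACB (-0.084). ACBD7 beside OLAH (0.29), BCOR beside MID1IP1 (0.13) and KCTD14 beside THRSP (0.0025) complete them, and none passed. Neighbours were not part of the rule for named genes, and a link between GGT7 and ACSS2 was not tested.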
